A study of Caenorhabditis elegans with 2 samples.

Results

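Chromatin bound by eGFP-tagged CEH-28 was mapped by ChIP-seq at 33 genes that build the release machinery of synapses in Caenorhabditis elegans. The 33 genes were taken from a list of synaptic vesicle, active zone and neuropeptide processing genes, drawn up with results of these data known. All 33 were found among 19973 protein-coding genes. CEH-28 is a homeodomain protein known for its role in M4, a single neuron of the worm pharynx. The samples were whole L4 larvae of both sexes of strain OP241, with genotype unc-119(ed3) III; wgIs241, in which an insertion carries the tagged gene. They form 1 group of 2 biological replicates, and the same control was tied to both. The labels name no promoter of the insertion and no cell type, and whole animals were used, so binding in neurons was not separated from binding elsewhere.

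At a synapse, vesicles filled with transmitter are carried along the axon, docked at the active zone by scaffold proteins and primed for release. Calcium entering through voltage-gated channels triggers fusion, which is driven by SNARE proteins on the vesicle and the plasma membrane. Endocytosis then retrieves the membrane, while neuropeptides are cut from precursors and leave from separate dense core vesicles. Most of these genes are known to be active across the worm nervous system.

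A summit is the position of the maximum of a called region, and its height is the authors' signal value, whose scale is not stated. The pooled list of both replicates held 20803 summits, and 1739 of them passed the threshold of the irreproducible discovery rate (IDR), with signals from 56.5 to 2314 and a median of 89.8. The separate lists held 23410 summits in replicate 1 and 26414 in replicate 2. Read numbers are unknown, because the lists hold no counts. For each gene, summits were collected from 2000 bp upstream of the gene start to the gene end, in ce11 coordinates and with the gene models of Ensembl release 115.

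Thresholded summits were found at 12 of the 33 genes, 36.4% (95% exact binomial interval 20.4 to 54.9, counting error only). Over all protein-coding genes the share was 7.56%. The synaptic genes are long, with a median of 8006 bp against 2027 bp over all protein-coding genes, and a longer gene offers a summit more room. Among genes of like length (the shorter at least 0.8 times the longer) on the same chromosome, called like genes here, the mean share was 16.2%, which would make 5.36 of 33 genes. In the gene body alone, without the upstream part, 4 of the 33 genes held a summit, 12.1%, beside 11.0% of like genes. Each synaptic gene had between 3 and 634 such genes, with a median of 206. The list was drawn up with results of these data known, so no test was made of this difference or of those that follow.

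The 12 genes held 16 summits in 15 regions. They were the synaptobrevin gene snb-1, the syntaxin-binding gene unc-18, the complexin gene cpx-1, the liprin gene syd-2, the RIM-binding gene rimb-1 and the calcium channel gene unc-36. The others were the kinesin gene unc-104, the vesicle GTPase gene rab-3, the endophilin gene unc-57, the synaptojanin gene unc-26 and the peptide processing genes egl-3 and egl-21. Of these, 11 genes had 1 summit each and rimb-1 had 5. Each of the 6 chromosomes carried 2 of the 12 genes, out of 7 listed genes on I, 4 on II, 4 on III, 7 on IV, 5 on V and 6 on X.

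**Figure D1:**
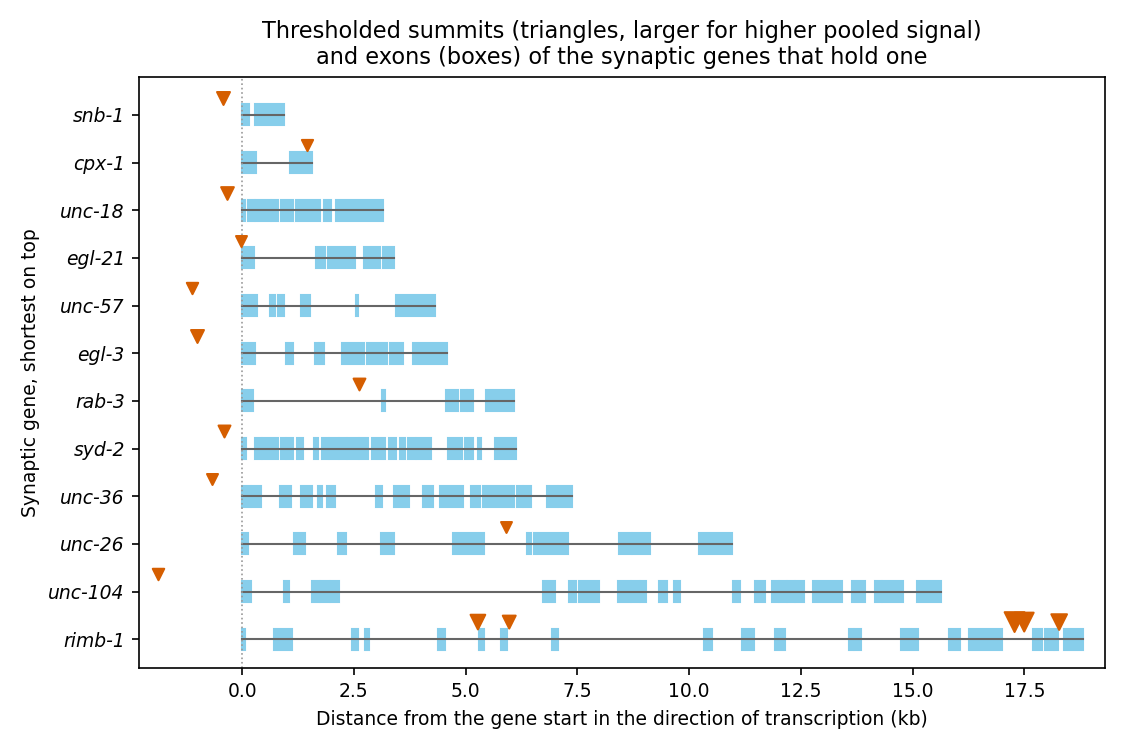
Exons (boxes) and thresholded summits (triangles, larger for a higher pooled signal) of the 12 genes, drawn by distance from the gene start in kb. In 8 genes the triangle lies upstream of the start, between 35 and 1879 bp, while the 5 summits of rimb-1 lie in its introns, 3 of them near the gene end.

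Sequences around the highest summit are printed for the 8 genes with the highest signals, leaving out those of 1 chromosome whose sequence is not shown. They hold the summit and 100 bases on either side, from the RefSeq copy of the same assembly, 5′ to 3′ on the strand of the gene, and capitals mark ATCGAT, a sequence found at most summits of the thresholded list. The windows are chrIII:1805515-1805715 for rimb-1 (plus strand), chrV:6656820-6657020 for snb-1 (minus), chrV:10174672-10174872 for egl-3 (minus) and chrX:7682451-7682651 for unc-18 (plus). The others are chrX:10555534-10555734 for syd-2 (minus), chrII:5725144-5725344 for rab-3 (minus), chrII:6993008-6993208 for unc-104 (plus) and chrIII:8201781-8201981 for unc-36 (minus).
rimb-1: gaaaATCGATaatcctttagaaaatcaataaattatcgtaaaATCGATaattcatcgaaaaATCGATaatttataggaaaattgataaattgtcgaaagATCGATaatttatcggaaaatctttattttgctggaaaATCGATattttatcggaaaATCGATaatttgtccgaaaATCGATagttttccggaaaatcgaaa
snb-1: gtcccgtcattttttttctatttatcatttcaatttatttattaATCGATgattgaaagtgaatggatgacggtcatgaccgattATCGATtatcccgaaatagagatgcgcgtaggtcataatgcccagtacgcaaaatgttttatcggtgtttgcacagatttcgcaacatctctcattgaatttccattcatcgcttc
egl-3: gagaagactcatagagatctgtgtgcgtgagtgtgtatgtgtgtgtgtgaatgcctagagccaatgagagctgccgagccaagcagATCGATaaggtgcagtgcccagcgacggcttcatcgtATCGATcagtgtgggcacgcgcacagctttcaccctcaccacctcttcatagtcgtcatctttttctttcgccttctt
unc-18: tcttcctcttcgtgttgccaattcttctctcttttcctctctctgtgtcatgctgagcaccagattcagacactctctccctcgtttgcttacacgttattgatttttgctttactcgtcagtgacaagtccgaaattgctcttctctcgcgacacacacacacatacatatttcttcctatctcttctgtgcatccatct
syd-2: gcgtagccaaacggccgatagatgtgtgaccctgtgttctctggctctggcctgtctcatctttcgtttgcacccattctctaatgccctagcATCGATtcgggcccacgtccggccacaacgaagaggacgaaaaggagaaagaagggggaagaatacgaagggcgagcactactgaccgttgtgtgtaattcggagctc
rab-3: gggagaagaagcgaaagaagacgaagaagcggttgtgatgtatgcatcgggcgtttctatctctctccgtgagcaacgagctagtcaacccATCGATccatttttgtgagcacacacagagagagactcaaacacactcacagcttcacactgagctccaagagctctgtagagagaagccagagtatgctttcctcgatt
unc-104: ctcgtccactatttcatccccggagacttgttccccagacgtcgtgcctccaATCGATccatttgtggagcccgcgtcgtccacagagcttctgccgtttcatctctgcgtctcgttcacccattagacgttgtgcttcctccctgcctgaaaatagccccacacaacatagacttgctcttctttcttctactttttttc
unc-36: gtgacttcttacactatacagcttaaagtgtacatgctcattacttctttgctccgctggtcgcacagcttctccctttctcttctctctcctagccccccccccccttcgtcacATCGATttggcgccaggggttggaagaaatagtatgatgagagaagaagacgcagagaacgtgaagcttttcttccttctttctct

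ATCGAT, which is its own reverse complement, lay within 100 bp of 15 of the 16 summits, 93.8%, and of 1 or more summits in 11 of the 12 genes. Over all 1739 thresholded summits the share was 76.1%, and over the weaker pooled summits 26.1%. Around the synaptic summits the nearest site was 2 to 45 bp away, with a median of 12.0 bp. Windows of the same size 1000 bp to the left held it in 2 of 16 cases and those to the right in 5. Among these, a left and a right window of rimb-1 summits fell on another thresholded summit of that gene. The exception among the 12 genes was unc-18, whose printed window has no capitals and is instead rich in runs of T and C.

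The run CTCTCT, or AGAGAG on the other strand, was counted after the sequences had been seen. It lay within 100 bp of 5 of the 16 summits, which were those of unc-18, unc-36, rab-3, unc-57 and egl-21. The share over all thresholded summits was 20.9%. Of the 8 upstream synaptic summits 4 had it, beside 30.4% of the 707 that lay within 2000 bp upstream of a protein-coding gene.

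Upstream summits made up 8 of the 16. Such summits lay from 2000 bp upstream to the gene start in 8 of the 33 genes, 24.2%, against 4.41% of all protein-coding genes and a mean of 6.61% of genes of like length. Their distance from the start ranged from 35 to 1879 bp with a median of 542 bp, and 4 lay within 500 bp. In each of the 8 genes the start of the gene itself was the nearest protein-coding start. Many worm messages receive a spliced leader, so that an annotated start can lie downstream of the place where transcription begins. ATCGAT was present at 7 of these 8 summits, against 68.3% of the 707 upstream summits of all genes.

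Of 9 genes of the SNARE proteins and their regulators, 3 held a thresholded summit, beside shares of like genes from 2.52% to 31.8%. At snb-1, which encodes the SNARE protein of the vesicle, the summit lay 419 bp upstream of the start (chromosome V, 6656854 to 6656949). Its pooled signal was 159 at rank 391, with 112 in replicate 1 and 48.3 in replicate 2. The gene is only 940 bp long, and of 634 genes of like length on the chromosome 16 held a summit, 2.52%. Both ATCGAT sites in its window of gene and upstream sequence lay at the summit, 41 bp apart.

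At unc-18, which encodes a protein that binds syntaxin and is needed for vesicle docking, the summit lay 345 bp upstream (chromosome X, 7682359 to 7682742). The pooled signal was 148, and the replicates had 101 and 47.8. In both replicates it stood high, at rank 494 of replicate 1 and 343 of replicate 2. The 2 ATCGAT sites in the window of unc-18 were both away from the summit.

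At cpx-1, which encodes complexin, a protein that clamps and promotes fusion, the summit lay in the 3′ UTR, 1448 bp downstream of the start (chromosome I, 1594576 to 1594959). Its pooled signal was 74.6, with 55.5 in replicate 1 and 18.8 in replicate 2. It was the only one of the 16 summits inside an exon of the synaptic gene itself, while those of syd-2 and unc-36 lay in exons of non-coding RNA genes.

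The other 6 genes of this group had pooled summits below the threshold. They were the tomosyn gene tom-1 (highest pooled signal 55.3), the syntaxin gene unc-64 (49.7), the NSF gene nsf-1 (44.8), the synaptotagmin gene snt-1 (28.1), the SNAP-25 homologue ric-4 (16.6) and the priming gene unc-13 (16.3). In these windows the plasma membrane SNARE genes unc-64 and ric-4 were below the threshold, and the vesicle SNARE gene snb-1 was above it. At unc-13, 31332 bp long, 4 pooled summits were found in the window and none reached 20. With the window drawn from 5000 bp upstream, ric-4 and unc-13 also held a thresholded summit.

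Among 8 scaffold and organizer genes of the active zone, 2 held thresholded summits, beside shares of like genes from 6.98% to 31.8%. At syd-2, which encodes liprin-alpha, an organizer of the active zone, the summit lay 395 bp upstream of the start (chromosome X, 10555442 to 10555825). Its pooled signal was 109, with 71.8 in replicate 1 and 36.5 in replicate 2. The place was also inside F59F5.9, annotated as a non-coding RNA gene.

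The rimb-1 gene, whose product links calcium channels to the RIM scaffold, carried the highest synaptic summits. They lay in 2 clusters, both in introns, and none was nearer than 4572 bp to an annotated transcript start of the gene. The first cluster had a summit in intron 5 of 19 with a pooled signal of 256 (replicates 190 and 64.1) and one in intron 7 with 158 (125 and 34.7). They were 5275 and 5976 bp downstream of the gene start.

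The second cluster of rimb-1 lay 17282 to 18280 bp from the gene start (chromosome III). In intron 16, a single region from 1805250 to 1806299 held summits of 609 and 537, at ranks 25 and 34 of the pooled list. Both fell in 1 region of each replicate, with signals of 487 and 134. In intron 19, only 133 bp long, a summit of 314 had 261 in replicate 1 and 62.2 in replicate 2. For these 3 summits the start of clp-4, a calpain gene, was the nearest protein-coding start, 11710 to 12708 bp away.

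The sites in the second cluster were evenly spaced, as the capitals in the printed rimb-1 sequence show. The 3 summits had 7, 6 and 4 ATCGAT sites within 100 bp. Of the 14 distances between neighbouring sites there, 10 were 19 bp, 3 were 38 bp and 1 was 18 bp. Among all 386 thresholded summits with 3 or more sites, 70 had a pair spaced by 19 bp, 18.1%. In repeated sequence, reads can be hard to place, and the handling of such reads is not given in the sources used here. The part of read placement in these signals was not tested.

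Across its whole window rimb-1 had 33 ATCGAT sites, of which 20 lay at thresholded summits. Of its 44 genes of like length on the chromosome, 31.8% held a summit, the highest such share of the 33 genes, with tom-1 at the same value.

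The 6 remaining active zone genes had highest pooled signals of 39.5 for the RIM gene unc-10, 39.3 for syd-1, 32.6 for cla-1, 28.0 for rpm-1, 21.0 for sad-1 and 15.4 for elks-1. Most of these encode scaffolds, while sad-1 encodes a kinase and rpm-1 a ubiquitin ligase of synapse formation. The cla-1 gene is 39308 bp long and had 17 ATCGAT sites in its window but no thresholded summit.

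Of 3 calcium channel genes, with shares of like genes from 0% (unc-2, with only 3 such genes) to 26.5%, unc-36 held a summit. It encodes the auxiliary alpha-2/delta subunit, and the summit lay 664 bp upstream of the start (chromosome III, 8201689 to 8202072), inside the non-coding RNA gene C50C3.15. The pooled signal was 65.2, with 50.7 in replicate 1 and 13.6 in replicate 2. In replicate 2 it stood only at rank 2899, below the 1739 highest. The pore subunit genes unc-2 and egl-19 had highest pooled signals of 20.3 and 16.8. The window of unc-2, the longest of the 33 genes at 52607 bp, held 10 pooled summits and 11 ATCGAT sites without any thresholded summit.

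In the group of vesicle transport and the RAB-3 cycle, 2 of 4 genes held a summit, beside shares of like genes from 8.25% to 19.7%. At unc-104, the kinesin that carries synaptic vesicle precursors, it lay 1879 bp upstream of the start (chromosome II, 6992916 to 6993299), close to the edge of the window. The pooled signal was 87.1, with 55.9 in replicate 1 and 27.8 in replicate 2.

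At rab-3, which encodes the GTPase of synaptic vesicles, the summit lay in intron 1 of 5, 2609 bp downstream of the gene start (chromosome II, 5725052 to 5725435). This place is 514 bp upstream of the start of a shorter annotated transcript. The pooled signal was 105, with 85.6 in replicate 1 and 18.5 in replicate 2, a ratio of 4.62 and the widest gap between the replicates among the 16 summits. For aex-3, which encodes an exchange factor of RAB-3, the highest pooled signal was 43.1, and the synapsin gene snn-1 was the only one of the 33 genes without any pooled summit.

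Of 3 endocytosis genes, 2 held a summit, beside shares of like genes from 17.0% to 24.1%. At unc-57, which encodes endophilin, it lay 1119 bp upstream (chromosome I, 4673822 to 4674205), with a pooled signal of 82.9 and replicate signals of 60.5 and 25.4. At unc-26, which encodes synaptojanin, it lay in intron 5 of 8, 5896 bp from the start (chromosome IV, 13266428 to 13266811). The pooled signal of unc-26 was 62.3, the lowest of the 16, with 32.5 in replicate 1 and 26.2 in replicate 2. The ratio of 1.24 was the smallest gap between the replicates, and in replicate 1 the summit stood at rank 2596, below the 1739 highest.

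The clathrin adaptor gene unc-11, of the AP180 family, missed the list by 1 rank. Its highest pooled summit lay 951 bp upstream of the start and reached 56.5, which was rank 1740. The replicates had 42.8 and 14.4 there.

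Of 5 genes of dense core vesicles and neuropeptide processing, the pair of processing enzymes held summits, beside shares of like genes from 6.42% to 30.9%. At egl-3, which encodes the proprotein convertase that cuts neuropeptide precursors, the summit lay 1019 bp upstream of the start (chromosome V, 10174702 to 10174825). Its pooled signal was 158, with 112 in replicate 1 and 46.5 in replicate 2. Both ATCGAT sites in the egl-3 window lay at this summit, 37 bp apart.

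At egl-21, the carboxypeptidase that trims the cut peptides, the summit lay 35 bp upstream of the start (chromosome IV, 10481687 to 10482070). It was the summit nearest to a gene start among the 16. The pooled signal was 63.5, with 44.7 in replicate 1 and 21.3 in replicate 2.

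The vesicle protein gene ida-1 was just outside the list, with a pooled signal of 56.2 at rank 1753 and a summit 224 bp upstream of the start. The release factor gene unc-31 and the gene ric-19 had highest pooled signals of 20.4 and 29.3. Outside these groups, rgef-1, a neuronal exchange factor of RAS-like proteins, had a pooled signal of 44.2. That summit lay 395 bp upstream of its start and had a region in replicate 1 (45.3) but none in replicate 2.

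**Figure D2:**
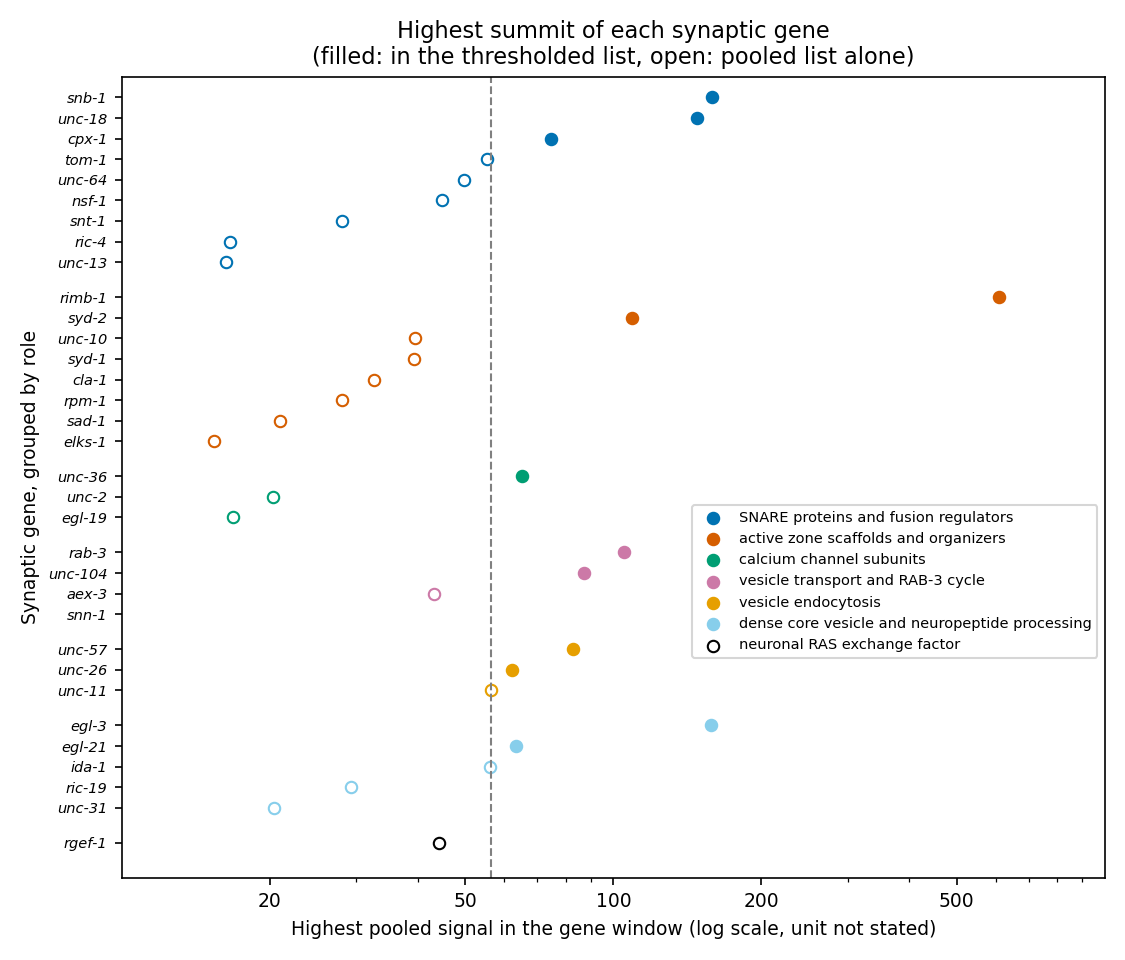
Highest pooled signal in the window of each gene that had one, 32 of 33 (log scale, no stated unit), grouped by role, with filled points for genes in the thresholded list and the dashed line at its lowest signal, 56.5. Each role with 3 or more genes has filled and open points, and unc-11, ida-1 and tom-1 lie at or just below the line.

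Signals at the 16 summits were higher in replicate 1 than in replicate 2 throughout, with ratios from 1.24 to 4.62 and a median of 2.68. The scale is not stated, and for the 1733 thresholded summits matched in both replicates the median ratio was 2.76, with 1.77 and 4.68 as the 10th and 90th percentiles. The synaptic ratios thus lay in the usual range except for unc-26. In each replicate 15 of the 16 summits were among its 1739 highest, with unc-26 missing in replicate 1 and unc-36 in replicate 2. The 2 rimb-1 summits in intron 16 shared 1 region of each replicate, so the same replicate values stand for both in these counts and ratios. All 16 had the −log10 q value of 3.76 that the whole thresholded list shares, so q values did not order them.

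**Figure D3:**
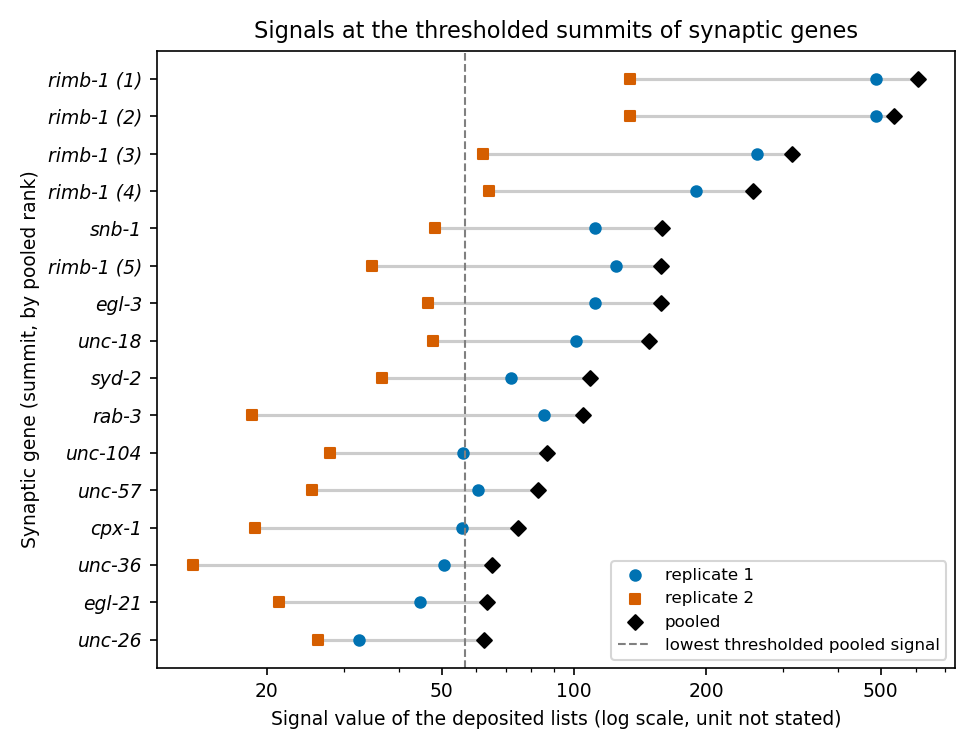
Signals of the 16 thresholded summits in replicate 1 (circles), replicate 2 (squares) and the pooled list (diamonds) on a log scale with no stated unit, ordered by pooled rank. Every square lies left of its circle, and the 5 summits of rimb-1 take the first 4 places and the sixth.

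Outside rimb-1, the synaptic summits had signals near those of the thresholded list. The median pooled signal was 128 over 16 summits and 87.1 over the 11 outside rimb-1, which ranged from 62.3 to 159, beside the median of 89.8 in the whole list. At or above that median lay 10 summits of 6 genes. By density, the windows of the 33 genes held 3.63 thresholded summits per 100 kb over 440 kb, or 2.62 without rimb-1, against 1.92 over the merged windows of all protein-coding genes.

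ATCGAT sites were not more frequent in the synaptic windows than over all protein-coding windows. The synaptic windows held 169 sites, 0.384 per kb, or 0.324 per kb without rimb-1, against 0.406 per kb over all protein-coding windows. At thresholded summits lay 32 of the 169, 18.9%, against 8.02% over all protein-coding windows, and without rimb-1 the share was 12 of 136, 8.82%. The share of occupied sites outside rimb-1 was thus near that of all genes, and few of the sites in these windows lay at a thresholded summit.

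By class, 8 of the 16 summits were upstream, 7 in introns and 1 in an exon, each by the models of the synaptic gene. For all thresholded summits in windows of protein-coding genes, with a summit counted once for each window it lies in, 46.4% were upstream, 38.0% in introns and 15.6% in exons. Of the 7 intronic summits 5 were in rimb-1, and without that gene introns held 18.2%.

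The median length of the 12 genes with a summit was 5332 bp, against 9218 bp for the 21 genes without one, and the lengths overlapped, from 940 bp at snb-1 to 18815 bp at rimb-1 among the 12. The mean share of like genes with a summit was 13.8% around the 12 genes and 17.6% around the 21. For the 8 genes with an upstream summit, the share of like genes ranged from 2.52% around snb-1 to 26.5% around unc-36.

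On the autosomes, genes in the outer parts of chromosomes held summits more often than those in the middle, where most of the synaptic genes lie. Of 16 synaptic genes in the middle of 3 equal parts of an autosome, 5 held a summit, beside 4.86% of the protein-coding genes there. In the outer parts it was 5 of 11, beside 9.63%, and on X 2 of 6, beside 5.93%. With like genes taken from the same part as well, their mean share was 14.1%.

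In the whole pooled list, which includes the thresholded summits, 32 of the 33 genes (97.0%) had 1 or more summits, 112 in all. The share was 56.0% over all protein-coding genes and 80.6% among genes of like length. Of the 20 genes with pooled summits alone, the highest signal ranged from 15.4 to 56.5 with a median of 31.0. This highest summit was upstream in 9 of them, in an intron in 7 and in an exon in 4, and 6 had ATCGAT within 100 bp. A region in both replicates was found for 13 of the 20.

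Next to the threshold, unc-26 (62.3), egl-21 (63.5) and unc-36 (65.2) were the lowest genes inside and unc-11 (56.5), ida-1 (56.2) and tom-1 (55.3) the highest outside. For ida-1 the replicates had 41.6 and 16.7, and for tom-1 37.8 and 17.4. At unc-64 replicate 1 had 41.7 and replicate 2 had 9.47, and at nsf-1 the values were 26.0 and 22.7. Among the genes inside, the lowest values were 32.5 in replicate 1, at unc-26, and 13.6 in replicate 2, at unc-36. The replicate values of the genes outside given here overlap those inside, except 9.47 at unc-64 and 26.0 at nsf-1, which were lower.

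Other presynaptic genes, from a separate list, held summits in 17 of 57 cases, 29.8% (interval 18.4 to 43.4), beside 14.5% of their like genes. The highest were at egl-8, a phospholipase C gene (319, in a 3′ UTR), egl-30, which encodes a G protein alpha subunit (209, in a 5′ UTR), and unc-108, which encodes a Rab GTPase (182, in an intron). For the egl-8 summit the nearest protein-coding start was that of B0348.2, 2018 bp away. For egl-30 it was that of C53H9.4, 1033 bp away, while an annotated transcript of egl-30 starts 162 bp away. The unc-108 summit lay 41 bp upstream of the start of an annotated transcript of that gene. Of the 57 genes, 10 had an upstream summit, beside 4.41% of all protein-coding genes. At some of these summits the start of another protein-coding gene was nearer, at the closest 22 bp away.

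Genes of transmitter synthesis and transport held summits in 3 of 18 cases, 16.7% (interval 3.58 to 41.4), beside 11.9% of like genes. They were the serotonin transporter gene mod-5 (540, in a 3′ UTR), the acetylcholinesterase gene ace-2 (in an intron) and the GABA synthesis gene unc-25 (74.4, in an intron), and none of the 18 had an upstream summit. The nearest protein-coding start was that of rpb-7 for the mod-5 summit, 2003 bp away, and that of Y44E3A.7 for ace-2, 3929 bp away. Neurotransmitter receptor genes held summits in 2 of 34 cases, 5.88% (interval 0.720 to 19.7), beside 13.7% of like genes. These were ser-4, a serotonin receptor gene (138), and unc-29, an acetylcholine receptor subunit gene (60.1, 1100 bp upstream).

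Sarcomere and attachment genes of body wall muscle, a tissue outside the nervous system, held a summit in 1 of 31 cases, 3.23% (interval 0.0816 to 16.7). That gene was pat-4, with 66.7 in its 3′ UTR, where the nearest protein-coding start was that of mrpl-40, 1899 bp away. The share of like genes was 14.1%, for the 30 genes that had any. The 2 presynaptic lists and the synthesis and transport list had higher shares than their like genes, and the receptor and muscle lists had lower ones. For the synthesis and transport, receptor and muscle lists the share of like genes lay inside the interval. The differences were not tested.

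**Figure D4:**
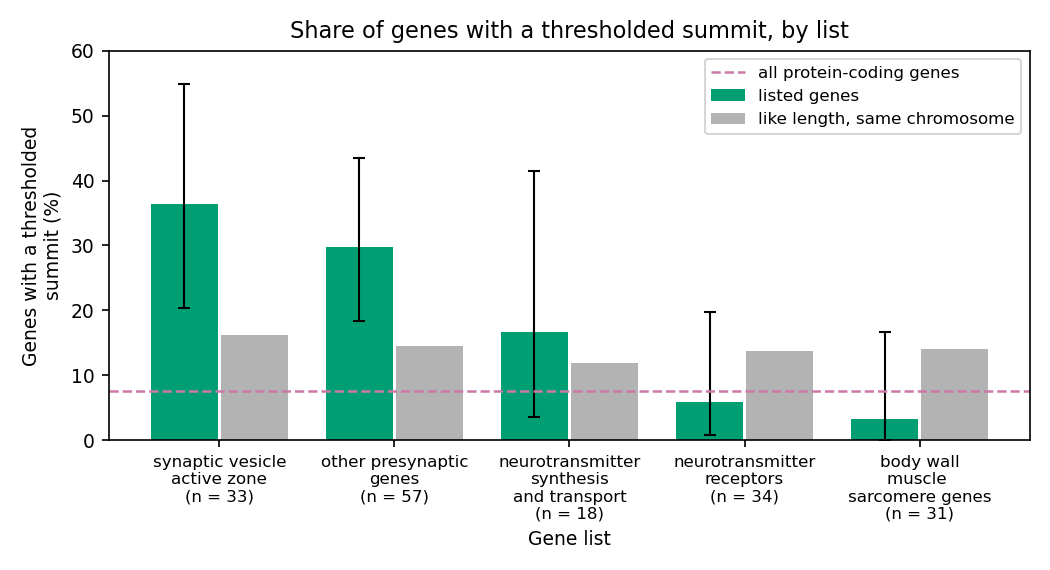
Percent of genes with a thresholded summit in 5 gene lists (green, with 95% exact binomial intervals), in genes of like length on the same chromosome (grey, mean over the list) and in all protein-coding genes (dashed line, 7.56%). The synaptic vesicle and active zone genes (36.4%) and the other presynaptic genes (29.8%) stand above their grey bars. The receptor and muscle genes stand below grey bars that lie inside their intervals.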

How the data were processed

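ChIP-seq of tagged CEH-28 gave 4 deposited ce11 peak lists: replicate 1, replicate 2, both pooled, and the IDR-thresholded list. The deposited signal values are the authors' peak heights, with no stated scale, and were used to describe, rank and filter. The deposited −log10 q values are the authors' as well. No aligner, caller or version is given in the sources used here. The ce10 lists were not used, for lack of gene models on that build.

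A replicate's signal is its highest summit whose region overlaps the pooled region by at least 1 bp. ATCGAT was counted within 100 bp of summits. Genes of like length left out the 33 genes. All 33 symbols matched Ensembl WBcel235, which is the ce11 assembly. Of the 58 other presynaptic symbols, 57 matched. The genes, lists and most choices were made with earlier results of these data known. The rule for naming took every one of the 33 genes and up to 3 genes of each other list. No tests were made. The placing of summits was tested on simulated data. Alternatives covered windows, thresholds, single replicates, ownership of summits and the choice of like genes. Python 3.11.15, numpy 2.4.6, pandas 2.3.3, scipy 1.17.1 and matplotlib 3.10.9 were used.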

Additional observations from a re-analysis of the deposited data

How the results depend on the processing

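Of 67 alternative values, 48 stayed within 1.5 times the main count or within the interval or spread of the main value. Genes with a summit fell from 12 to 4 (12.1%) and summits from 16 to 8 in the gene body alone, with other presynaptic genes at 9 and like genes at 11.0%. At or above the median signal they were 6 genes, 10 summits, 11 other presynaptic genes and 8.39% of like genes. The share of like genes moved to 15.0% and 21.2% with 1000 and 5000 bp upstream (9 and 16 of the 33 genes). The shorter window lost unc-104, unc-57 and egl-3, and the longer one gained ric-4, unc-13, unc-10 and egl-19. The share of like genes was 9.97% where the nearest start owns a summit. It was 14.9% without summits in exons of other genes, which lost syd-2 and unc-36. It was 17.3% for the 50 genes nearest in length, 14.1% within the same chromosome part, 14.6% by intron length and, in the upstream part alone, 6.61%. The last was chosen after seeing the data, as was leaving out rimb-1, which took introns from 43.8% to 18.2%. ATCGAT lay at 35.7% of pooled summits in these windows, and ranks in place of signals gave a median replicate ratio of 0.967. With 1 replicate left out, 12 to 13 genes held summits, and 11 of the 12 were shared in each case. Replicate 1 alone lost unc-26 and gained unc-11 and rgef-1, and replicate 2 alone lost unc-36 and gained nsf-1. No paired analysis was possible because there is no second group. Beyond the construction of each setting, the cause was not tested.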
